A study of Mus musculus with 24 samples.

Results

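Expression of 8 genes of Schwann cells and of the glial branch of the neural crest was examined in the jaws of mouse embryos, among 18194 genes that the arrays name. The genes were Sox10, Erbb3, Foxd3, Ednrb, Cdh19, Fabp7, S100b and Ngfr. They were taken by name, and each is given by the brightest of the probe sets that the platform annotation assigns to that gene alone. All 8 passed the filter on dim genes that left 13850 genes for testing, and they are covered by 16 probe sets in all.

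Mandible and maxilla at embryonic day 13.5 were each cut into a distal and a proximal end, and RNA was hybridised to Affymetrix arrays. Mutant embryos came from matings of Wnt1cre;Tgfbr2fl/+ mice with Tgfbr2fl/fl mice on a C57B6 background and were identified from their cleft palate and skull vault defect. The controls were their littermates of the same background, so they too can carry floxed alleles of Tgfbr2, a TGF-beta receptor gene, and their Cre status is not given. Wnt1-Cre recombines in the neural crest, from which the Schwann cells, the jaw mesenchyme and part of the sensory neurons of the head all descend. The 24 arrays form 8 groups of 3, one for each genotype, jaw and end. Arrays of one genotype with the same replicate number, 4 in all, are referred to as a set. The labels do not say whether a set is 1 embryo or a pool, nor that replicates were separate animals, so the p-values measure only how far these samples spread, part of which may be technical.

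Schwann cells arise from neural crest cells that migrate along growing nerves. The transcription factor SOX10 keeps these cells in the glial lineage, and they depend on neuregulin from the axon, which they sense through the receptor ERBB3 paired with ERBB2. Early crest cells and Schwann cell precursors also carry the endothelin receptor EDNRB and the neurotrophin receptor p75, the product of Ngfr. CDH19, FABP7 and S100B appear in sequence as precursors mature. None of these genes belongs to glia alone. Sox10 and Ednrb are also used by melanocyte precursors, Fabp7 by the satellite glia of sensory ganglia and by radial glia, S100b by cartilage cells, and Ngfr by mesenchyme and neurons.

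Of these genes, 5 had a promoter window, 250 bases before to 50 bases after the start of transcription, in the RefSeq table used (assembly GRCm38.p6). The 3 printed here belong to the pair of genes that varied most between the 8 groups, Fabp7 and S100b, and to Foxd3, which varied least among the genes with a window. Capitals mark CpG dinucleotides.
Foxd3, chr4:99656049-99656348, plus strand: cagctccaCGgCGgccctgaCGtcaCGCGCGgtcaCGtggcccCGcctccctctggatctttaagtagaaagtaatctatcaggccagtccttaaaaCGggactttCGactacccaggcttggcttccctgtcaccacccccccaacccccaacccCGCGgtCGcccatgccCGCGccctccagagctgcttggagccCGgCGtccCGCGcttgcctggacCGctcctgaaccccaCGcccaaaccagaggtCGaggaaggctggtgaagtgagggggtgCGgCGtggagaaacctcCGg
Fabp7, chr10:57784673-57784972, plus strand: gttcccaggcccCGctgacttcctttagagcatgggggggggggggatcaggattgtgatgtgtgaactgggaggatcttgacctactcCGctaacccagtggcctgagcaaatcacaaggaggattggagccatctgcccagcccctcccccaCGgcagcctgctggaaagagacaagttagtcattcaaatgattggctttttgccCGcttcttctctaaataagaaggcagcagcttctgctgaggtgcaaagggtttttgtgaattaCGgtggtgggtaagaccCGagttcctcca
S100b, chr10:76253586-76253885, plus strand: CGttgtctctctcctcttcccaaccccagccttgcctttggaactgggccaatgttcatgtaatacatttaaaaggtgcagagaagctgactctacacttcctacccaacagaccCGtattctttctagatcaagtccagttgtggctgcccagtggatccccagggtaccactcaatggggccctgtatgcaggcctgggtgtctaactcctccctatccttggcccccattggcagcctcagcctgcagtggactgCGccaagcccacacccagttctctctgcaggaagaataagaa
The Foxd3 window holds 25 CpG, the Fabp7 window 6 and the S100b window 3, beside 15 for Ednrb and 23 for Ngfr and a median of 7 over 32851 windows. At most 6 CpG were found in 47.9% of all windows and at least 15 in 34.6%. The core words of SOX binding sites, ACAAAG and ACAATG, searched on both strands, were in 0 of the 5 windows and, either word, in 28.6% of all windows. The word GTGGGAA, the core of sites for the Notch effector RBPJ, was in 0 of the 5 and in 6.38% of all. GGGCGG, the core of SP1 sites, was found in the Ngfr window (4 matches) and in 35.7% of all.

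Values are log2 expression after RMA, so a difference of 1 is a doubling. Because a probe set's brightness depends on its probes, levels are compared between arrays for 1 gene and never between genes. In bulk tissue, fewer cells of a type and less RNA per cell cannot be told apart. On all 24 arrays each of the 8 brightest probe sets exceeded the 40th percentile. Mbp and Egr2, genes of the later, myelinating stage, had group means of 8.33 to 9.0 and 6.53 to 7.49, where the 40th percentile averaged 6.30.

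Some arrays stood apart from the rest of their group. On the distal maxilla array of mutant set 1 the mean of 10 cartilage genes was 11.43, against 7.45 and 7.46 on the other arrays of that group, and the mean of 17 genes of peripheral neurons was 8.77, against 7.32 to 7.43 in control distal maxilla. On the proximal maxilla array of the same set the mean of 9 brain genes was 8.08, and it was 7.41 on the distal one, where no control array exceeded 5.72. Otx2, a forebrain transcription factor, reached 10.21 and 9.60 on them, against group means of 3.90 to 4.05 in controls. Several results that change without those arrays are given both ways. The Gapdh 3' minus 5' difference, which rises as RNA degrades, was -0.07 to 0.16 in control arrays, 0.04 to 0.10 in mutant set 2 and 0.25 to 0.77 in mutant sets 1 and 3. Mutant sets 2 and 3 held both Xist and Y-linked transcripts at high levels, and no other set did. Tgfbr2 itself read 12.42 in mutant and 12.11 in control arrays (difference 0.31 ± 0.0543, SE, limma adjusted p = 0.000296), and where its probes lie relative to the deleted part is not given.

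Fabp7 and S100b varied most between the 8 groups of genotype, jaw and end. The group means of Fabp7 spanned 3.01 (8.04-fold), from mutant distal mandible to control proximal maxilla. Those of S100b spanned 3.30 (9.87-fold), from control distal maxilla to mutant proximal mandible. Both spans thus cross genotype as well as region. Within controls the means ran from 9.55 to 12.18 for Fabp7 and from 6.95 to 8.85 for S100b. Within mutants they ran from 9.18 to 12.16 and from 7.88 to 10.25. For the others the span over the 8 groups was smaller, from 0.39 for Foxd3 to 0.83 for Ednrb. These too lay above the median span of all genes tested, 0.34. The pooled standard deviation (SD) within groups was 0.357 for Fabp7 and 0.655 for S100b, and 0.188 to 0.354 for the rest.

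**Figure D1:**
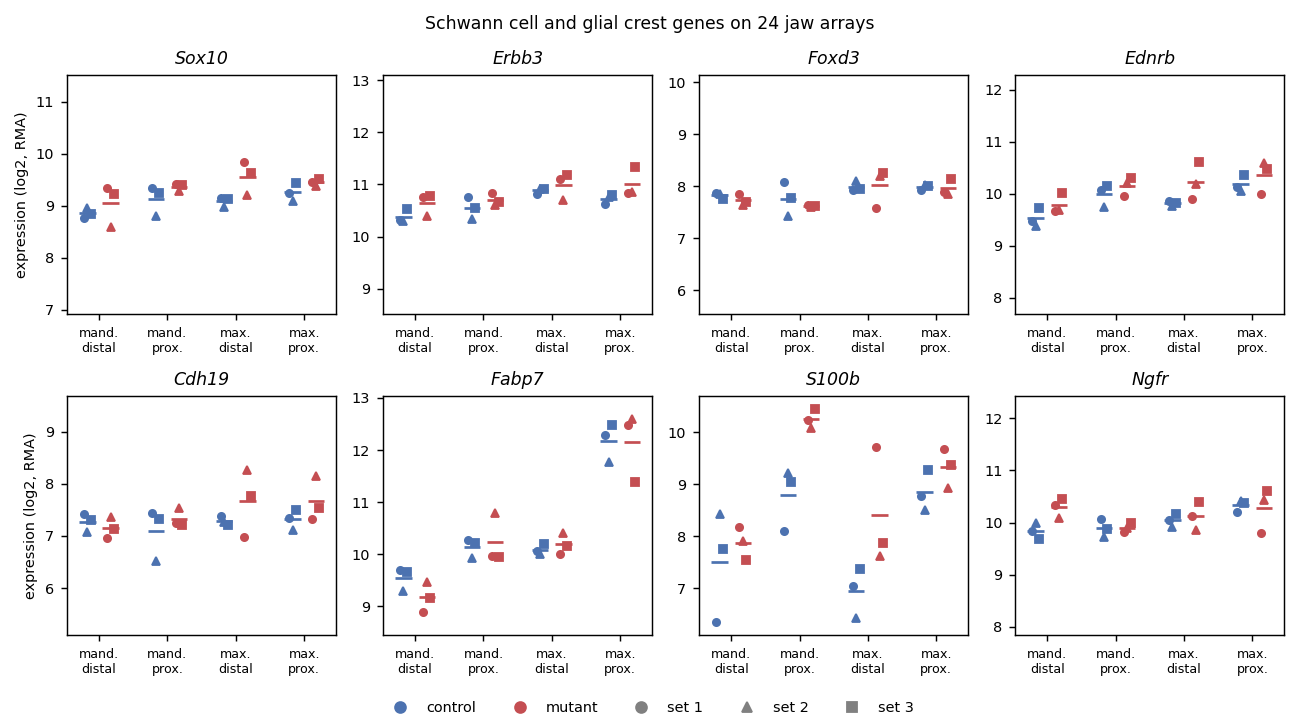
Expression (log2, RMA) of each gene on the 24 arrays, by region on the horizontal axis, with control arrays in blue, mutant arrays in red, a marker shape for each set and a bar at each group mean of 3 arrays; every panel spans the same number of log2 units. Fabp7 stands at 11.39 to 12.59 in proximal maxilla and at most at 10.78 elsewhere, and the S100b arrays of the genotypes do not overlap in proximal mandible.

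Between genotypes, 4 of the 8 genes passed the test on the average over the 4 regions, all of them higher in mutant jaws: S100b, Sox10, Ednrb and Erbb3. In this comparison 33.7% of all genes tested were called, 18.3% as higher and 15.5% as lower, so calls were common in general. The differences of Sox10, Ednrb and Erbb3 were 1.15-fold to 1.21-fold, and S100b differed by 1.92-fold. The median difference of the 8 genes was 0.208, against 0.0201 for all genes tested. None of the 4 calls held with the set as a random block or with 1 value per set, the fits that do not count the arrays of a set as separate samples, and these called 11.6% and 0.578% of all genes. Against mutant set 2 alone 47.6% of all genes were called, and 32.4% without the maxilla arrays of mutant set 1. Without a call were Cdh19 (0.21 ± 0.135, SE, adjusted p = 0.238), Ngfr (0.13 ± 0.0835, adjusted p = 0.259), Foxd3 (-0.06 ± 0.0758, adjusted p = 0.6) and Fabp7 (-0.05 ± 0.137, adjusted p = 0.807). For Fabp7 the 95% interval of the difference ran from -0.34 to 0.24.

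Within single regions 0 of the 8 were called. The share of all genes called there was 0.895% in distal mandible, 5.36% in proximal mandible, 7.08% in distal maxilla and 5.7% in proximal maxilla. At an unadjusted p under 0.05 the counts were 1, 1, 3 and 0, where 15.1%, 19.6%, 22.5% and 21.4% of all genes passed. No gene of the whole table was called for a genotype effect that differed between jaws or between ends (0% in both tests of the difference), where the unadjusted test passed 480 and 430 genes in all and 0 of the 8.

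**Figure D2:**
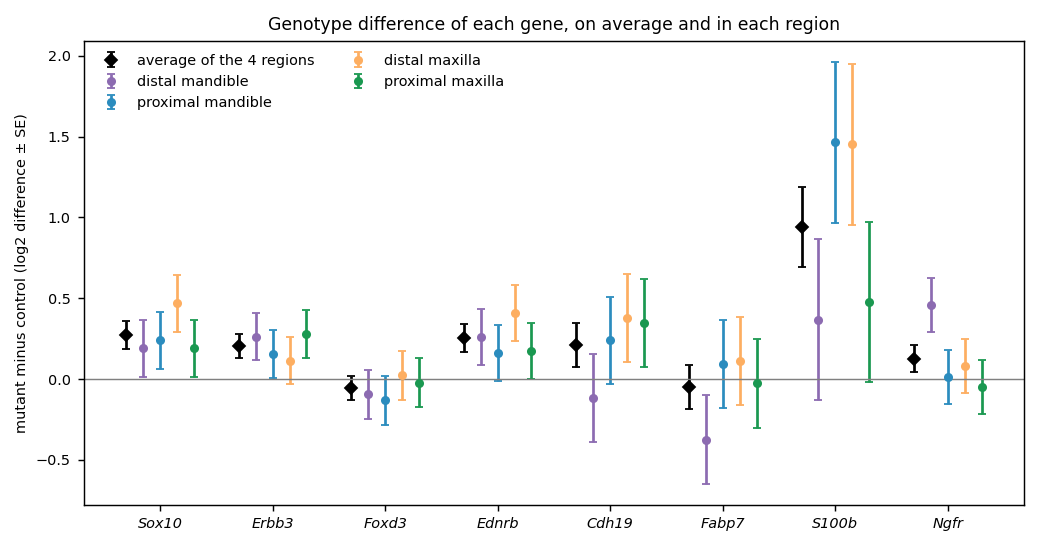
Mutant minus control log2 difference of each gene with its SE, on average over the 4 regions (black, 12 against 12 arrays) and in each region (coloured, 3 against 3 arrays). S100b has the largest differences, at 0.94 on average and 1.47 and 1.45 in proximal mandible and distal maxilla, while the averages of Foxd3 and Fabp7 are -0.06 and -0.05.

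Sox10, the transcription factor that defines the glial crest, was measured at 8.76, 8.96 and 8.85 in control distal mandible (replicates 1, 2 and 3) and at 9.33, 8.60 and 9.22 in mutant distal mandible. In proximal mandible the values were 9.33, 8.79 and 9.25 in controls and 9.42, 9.29 and 9.39 in mutants. In distal maxilla they were 9.15, 8.97 and 9.14 in controls and 9.84, 9.20 and 9.63 in mutants, the one region where the genotypes did not overlap. Proximal maxilla held 9.24, 9.10 and 9.44 in controls and 9.45, 9.38 and 9.52 in mutants. Mutant set 2 was the lowest mutant array in all 4 regions. The average difference was 0.27 ± 0.0876 (SE, adjusted p = 0.0219, 1.21-fold), and group means were higher in mutants in all 4 regions. Taken set by set against the control mean, mutant sets 1 and 3 stood at 0.43 and 0.36 and set 2 at 0.03. The sets that were high in Sox10 were the sets with a high Gapdh 3' minus 5' difference, and over the 24 arrays the correlation of Sox10 with it was 0.63, a description over arrays that share sets. With that difference as a covariate the genotype effect was 0.03 (adjusted p = 0.836), and against mutant set 2 alone it was 0.03. On every array of mutant sets 1 and 3 the Gapdh difference exceeded that of every control array. The covariate therefore also takes up genotype difference, and RNA quality and genotype cannot be told apart in those sets.

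The Sox10 call was also lost with the random block (adjusted p = 0.182), with 1 value per set (adjusted p = 0.236), and without the 2 maxilla arrays of mutant set 1 (0.24, adjusted p = 0.0532). It was lost without control set 1 or 2 (adjusted p = 0.0621 and 0.118) and without mutant set 1 or 3 (adjusted p = 0.123 and 0.122). The other Sox10 probe sets, with means of 7.86 and 6.32 against 9.22 for the brightest, gave 0.13 (adjusted p over probe sets 0.251) and -0.08 (0.344).

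Foxd3, a transcription factor of premigratory crest and early glial precursors, ran from 7.43 to 8.10 in control arrays (median 7.93) and from 7.59 to 8.26 in mutant arrays (median 7.77). The ranges of the genotypes overlapped almost wholly. Foxd3 differed between jaws: mandible was lower than maxilla by an average of -0.26 ± 0.0758 (SE, adjusted p = 0.0228). In that comparison 18.4% of all genes were called, 10.7% as lower and 7.69% as higher, and 4 of the 8 genes here were lower in mandible (Fabp7, Erbb3, Foxd3 and Ednrb) and 0 higher. The Foxd3 call was lost without control set 2 or 3 (adjusted p = 0.154 and 0.114) and without mutant set 2 or 3 (adjusted p = 0.0766 and 0.143).

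Erbb3, the neuregulin receptor subunit on which Schwann cell precursors depend, was measured at 10.32, 10.29 and 10.52 in control distal mandible and at 10.82, 10.91 and 10.92 in control distal maxilla. These arrays did not overlap, and the jaw difference at the distal end of controls was -0.51 ± 0.147 (SE, adjusted p = 0.0352, with 9.21% of all genes called). With 2 control arrays a group instead of 3 it was not called (adjusted p = 0.166, 0.322 and 0.177 without control set 1, 2 and 3). In mutants the same 2 regions held 10.76, 10.40 and 10.77 against 11.11, 10.70 and 11.18, a difference of -0.36 ± 0.147 (adjusted p = 0.235). Averaged over genotypes and ends, Erbb3 was lower in mandible by -0.34 ± 0.0735 (adjusted p = 0.00264), a call that held in all 14 other settings tried, with values of -0.38 to -0.17. The smallest of them came with the mean of all probe sets, where the dim second probe set (mean 6.14, jaw difference 0.0009) counts as much as the bright one (mean 10.73).

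Between genotypes Erbb3 ran from 10.29 to 10.92 in control arrays (median 10.69) and from 10.40 to 11.33 in mutant arrays (median 10.80). The arrays did not overlap in proximal maxilla, where control values of 10.62, 10.75 and 10.80 stood below mutant values of 10.83, 10.85 and 11.33 (0.28 ± 0.147, adjusted p = 0.287). The average difference was 0.20 ± 0.0735 (adjusted p = 0.0396). By set, mutant sets 1, 2 and 3 differed from the control mean by 0.25, 0.01 and 0.35, so set 2 lay near the controls as for Sox10. The correlation with the Gapdh difference was 0.67 over the 24 arrays, and with it as a covariate the effect turned to -0.02 (adjusted p = 0.792). As for Sox10, that fit cannot tell RNA quality and genotype apart in mutant sets 1 and 3. The call was lost with the random block (adjusted p = 0.254) and without any 1 set other than mutant set 2 (adjusted p = 0.0741 to 0.201). It was also lost with a second quantile normalization and with all probe sets averaged, and held in 3 of the 14 other settings. Against mutant set 2 alone the genotype difference was 0.01. The second probe set gave -0.09 (adjusted p over probe sets 0.238). Sox10 and Erbb3 were the pair that moved most alike among the 8 genes, with a correlation of 0.77 over 24 arrays and 0.71 after removing group means.

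**Figure D3:**
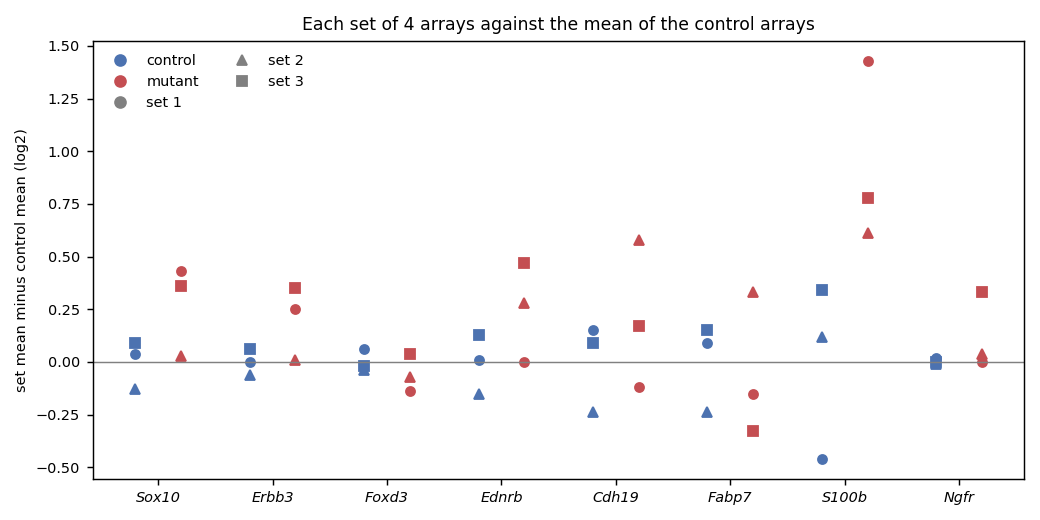
Mean of each set of 4 arrays minus the mean of the 12 control arrays (log2) for each gene, with control sets in blue, mutant sets in red and a marker shape for each set. For Sox10 and Erbb3 mutant set 2 (triangle) lies among the controls at 0.03 and 0.01 and sets 1 and 3 above, while for S100b all mutant sets lie above all control sets.

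Ednrb, the endothelin receptor of migrating crest, glial and melanocyte precursors, was lowest at the distal end of the mandible. Control values there were 9.49, 9.38 and 9.72, against 10.07, 9.75 and 10.16 at the proximal end. In control maxilla they were 9.87, 9.76 and 9.82 at the distal end and 10.14, 10.05 and 10.36 at the proximal end. In both jaws the ends did not overlap in controls. Mutant values were 9.66, 9.68 and 10.02 in distal and 9.96, 10.20 and 10.30 in proximal mandible, and 9.90, 10.18 and 10.60 in distal and 9.99, 10.59 and 10.48 in proximal maxilla. The ends overlapped in both mutant jaws. On average the distal end was lower by -0.33 ± 0.0871 (SE, adjusted p = 0.00664), in a comparison with 30.5% of all genes called, 15.4% as lower and 15.1% as higher. Of the 8 genes, 3 were lower at the distal end (Fabp7, S100b and Ednrb) and 0 higher. Arrays of the same number deviated together between the ends, and with the set as a block the same 3 were called (42.8% of all genes with a random and 44.9% with a fixed block). In control maxilla alone the Ednrb difference was -0.36 (adjusted p = 0.307), and with the set as a fixed block it was called (adjusted p = 0.0282), which made 3 of the 8 called there in place of 2, with 11.4% of all genes called.

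Ednrb was also lower in mandible than in maxilla, by -0.28 ± 0.0871 (adjusted p = 0.0298), and higher in mutants than in controls, by 0.25 ± 0.0871 (adjusted p = 0.0322, 1.19-fold). By set the mutants stood at 0.00, 0.28 and 0.47 from the control mean, so here set 1 was the one near the controls. Without its 2 maxilla arrays the difference was 0.34 (adjusted p = 0.00231), and distal maxilla gave 0.57 (adjusted p = 0.047, with 4.12% of all genes called) against 0.41 (adjusted p = 0.165) with them. The correlation with the Gapdh difference was 0.25, and against mutant set 2 alone the genotype difference was 0.28. With the Gapdh difference as a covariate it was 0.22 and not called (adjusted p = 0.161). The genotype call was lost with the random block (adjusted p = 0.155) and without control set 1 or 2 or mutant set 2 or 3 (adjusted p = 0.0700 to 0.227), and the jaw call without any control set or without mutant set 2 (adjusted p = 0.0673 to 0.135). The other Ednrb probe sets, with means of 7.74 and 6.76 against 10.01, went the opposite way between genotypes, at -0.31 (adjusted p over probe sets 0.306) and -0.10 (0.392). When the 3 probe sets were averaged, the genotype difference was -0.05 (adjusted p = 0.734), the jaw difference -0.15 (adjusted p = 0.356) and the end difference -0.24 (adjusted p = 0.0745).

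Ngfr, which encodes the low-affinity neurotrophin receptor p75, ran from 9.68 to 10.41 in control and from 9.81 to 10.60 in mutant arrays. In distal mandible its arrays did not overlap between genotypes, at 9.83, 10 and 9.68 in controls and 10.34, 10.08 and 10.45 in mutants. That difference was 0.46 ± 0.167 (SE, adjusted p = 0.198), and of the settings tried it was called only without mutant set 2 (0.56, adjusted p = 0.0378). In mutant mandible the distal arrays lay above the proximal ones at 9.81, 9.90 and 10, by 0.39 ± 0.167 (adjusted p = 0.132, with 15.9% of all genes called). With the set as a random block, the mutant mandible had 4 of the 8 called between the ends (27.1% of all genes) in place of 2, with Ngfr at an adjusted p of 0.0493 and Ednrb lower at 0.0261. With the set as a fixed block (28.5% of all genes) Ednrb was added (adjusted p = 0.0128) and Ngfr was not. In control maxilla the distal arrays, at 10.05, 9.91 and 10.17, lay below the proximal ones, at 10.21, 10.41 and 10.37, by -0.29 ± 0.167 (adjusted p = 0.452). The other probe sets gave average genotype differences of -0.17 and -0.16, against 0.13 for the brightest.

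Cdh19, a cadherin of Schwann cell precursors, was the dimmest of the 8 probe sets, at 6.52 to 7.51 in control arrays and 6.96 to 8.27 in mutant arrays. Its highest values were the distal and proximal maxilla arrays of mutant set 2, at 8.27 and 8.15, and the next were those of mutant set 3, at 7.76 and 7.54. The maxilla arrays of mutant set 1, at 6.98 and 7.32, lay within the control range. Without those 2 arrays the average genotype difference was 0.34 (adjusted p = 0.0282). Against mutant set 2 alone, a fit with a single array in each mutant group, it was 0.58. By set the mutants stood at -0.12, 0.58 and 0.17 from the control mean, so the sets shared neither a size nor, in set 1, a sign. The correlation with the Gapdh difference was -0.06.

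Fabp7, the brain-type fatty acid binding protein of immature Schwann cells and satellite glia, was high in proximal maxilla of both genotypes. Control values there were 12.29, 11.77 and 12.49, and mutant values 12.49, 12.59 and 11.39. In control distal maxilla Fabp7 stood at 10.07, 10 and 10.19, in control proximal mandible at 10.27, 9.93 and 10.21, and in control distal mandible at 9.70, 9.29 and 9.65. Mutant values were 10.01, 10.41 and 10.16 in distal maxilla, 9.96, 10.78 and 9.94 in proximal mandible, and 8.90, 9.47 and 9.16 in distal mandible. In both genotypes the order was the same: proximal maxilla far above the rest, distal maxilla and proximal mandible overlapping each other, and distal mandible lowest with no overlap with any other region.

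On average Fabp7 was lower in mandible than in maxilla by -1.38 ± 0.137 (SE, adjusted p = 9.95e-07, 2.61-fold lower) and lower at the distal than at the proximal end by -1.42 ± 0.137 (adjusted p = 1.97e-07, 2.68-fold lower). Both calls held in all 14 other settings. At the proximal end the jaw difference was -2.05 ± 0.273 in controls (adjusted p = 0.000556, with 2.61% of all genes called) and -1.93 in mutants (adjusted p = 0.00029, with 5.69% called). At the distal end it was -0.54 in controls (adjusted p = 0.323) and -1.02 in mutants (adjusted p = 0.0356, with 4.92% called), the latter lost without any 1 set other than mutant set 2 (adjusted p = 0.0541 to 0.127). With the set as a fixed block, 3 of the 8 genes and 9.09% of all genes differed between the jaws at the distal end of mutants, with Ednrb (-0.44, adjusted p = 0.0126) and Sox10 (-0.51, adjusted p = 0.028) added to Fabp7. The end difference in maxilla was -2.10 ± 0.273 in controls (adjusted p = 0.00011, 4.28-fold lower, with 6.06% of all genes called) and -1.96 in mutants (adjusted p = 0.000438, with 5.15% called). In mandible it was -1.05 in mutants (adjusted p = 0.0112, and 0.0513 without mutant set 1). In control mandible it was -0.59 (adjusted p = 0.189). There 0 of the 8 were called, against 13.3% of all genes, and 3 with the set as a fixed block (23.8% of all), namely Fabp7 (adjusted p = 0.0396), Ednrb (-0.46, adjusted p = 0.00365) and S100b (-1.27, adjusted p = 0.0457). A test of whether the end difference depends on the jaw, added after the values were seen, gave 1.21 ± 0.273 for Fabp7 (adjusted p = 0.0109). It called 6.23% of all genes and 1 of the 8, and for Fabp7 it was lost without control set 1 or 3 (adjusted p = 0.0942 and 0.0894).

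**Figure D4:**
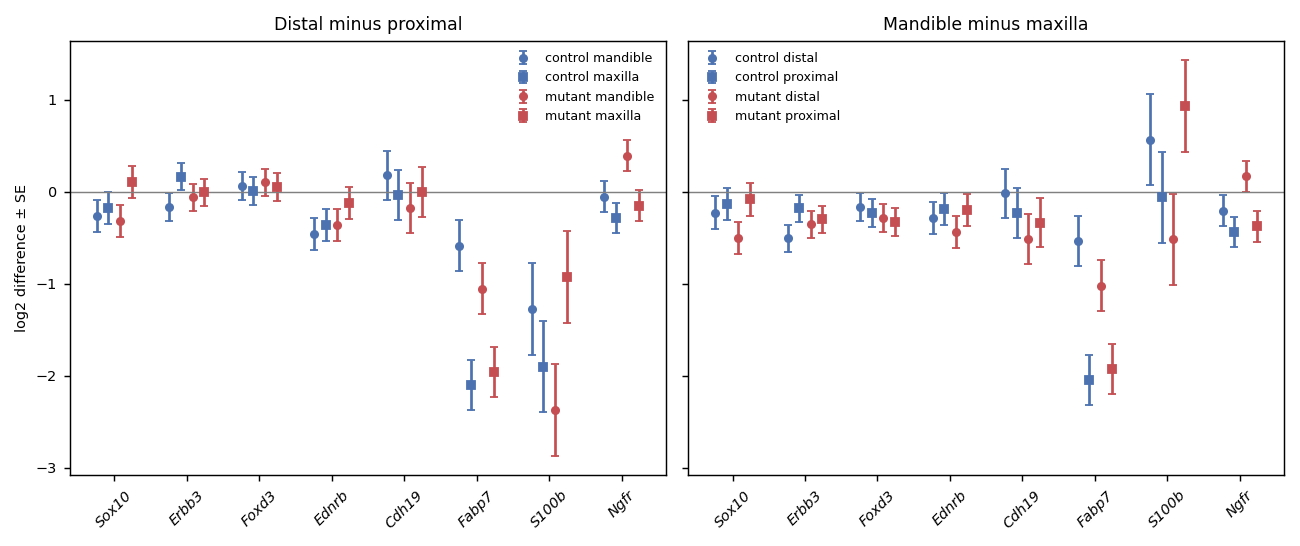
Distal minus proximal (left) and mandible minus maxilla (right) log2 differences of each gene with their SE, 3 against 3 arrays, in control (blue) and mutant (red) tissue. Fabp7 stands at -2.10 in control and -1.96 in mutant tissue between the ends of the maxilla, and the S100b end differences run from -2.37 to -0.92.

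The list of peripheral neuron genes was high on average in the same region, though not in every gene. The mean of the 17 genes of that list measured here ran from 9.59 to 9.94 in control and from 8.77 to 10.22 in mutant proximal maxilla, and from 7.31 to 8.05 elsewhere, apart from the distal maxilla array of mutant set 1 at 8.77. Prph, an intermediate filament of sensory and autonomic neurons, averaged 11.23 in control proximal maxilla and 6.02 to 6.99 in the other control regions. Pou4f1, a transcription factor of sensory neurons, averaged 8.0 there and 4.61 to 4.82 elsewhere. Stmn2, of the same list, averaged 11.13 in control distal mandible, where Fabp7 was low, and 11.09 in control proximal maxilla. For Isl1 the means were 10.13 and 10.82 in these control groups and 10.38 and 10.12 in the mutant ones. The array of mutant proximal maxilla with the lowest neuron list, replicate 3, also had the lowest Fabp7 of that group, at 11.39. The distal maxilla array of mutant set 1, with its neuron list at 8.77, went the other way. Its Fabp7 was the lowest of its group, at 10.01 against 10.41 and 10.16. Over the 24 arrays, which share sets and fall into separate regions, Fabp7 and the neuron list correlated at 0.89, and at 0.39 after removing group means. Gfap and Aqp4, markers of astrocytes, had group means of 5.71 to 6.10 and 5.75 to 5.95, under the average 40th percentile of 6.30, while Slc1a3, a glutamate transporter gene of astrocytes and radial glia, stood at 8.80 to 9.57 in the 8 groups. Of the 9 brain genes measured, 7 did not pass the filter, which asks for 3 or more arrays above the 40th percentile, and were not tested. Among these, Otx2 reached 10.21 and Olig2 8.82 in mutant proximal maxilla, and 9.60 and 6.91 in mutant distal maxilla. The part of neural tissue in the Fabp7 difference was not tested.

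S100b, a calcium-binding protein of Schwann cells and cartilage cells, was measured at 10.23, 10.08 and 10.44 in mutant proximal mandible and at 8.10, 9.22 and 9.04 in control proximal mandible. In proximal maxilla the values were 9.68, 8.92 and 9.37 in mutants and 8.77, 8.51 and 9.27 in controls. In distal mandible they were 8.19, 7.91 and 7.54 in mutants and 6.36, 8.42 and 7.76 in controls, and in distal maxilla 9.71, 7.62 and 7.88 against 7.04, 6.43 and 7.37. The genotypes did not overlap in proximal mandible and distal maxilla and overlapped in the other regions. The average difference was 0.94 ± 0.249 (SE, adjusted p = 0.00704), and the regional ones were 1.47 in proximal mandible (adjusted p = 0.0952), 1.45 in distal maxilla (0.0846), 0.48 in proximal maxilla (0.639) and 0.37 in distal mandible (0.79), each ± 0.498.

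All 3 mutant sets stood above all 3 control sets in S100b, at 1.43, 0.61 and 0.78 from the control mean. The genotype call was lost with the random block (adjusted p = 0.133), with 1 value per set (adjusted p = 0.119), without control set 1 (0.71, adjusted p = 0.0515) and with the Gapdh covariate (0.64, adjusted p = 0.139). Against mutant set 2 alone the genotype difference was 0.61. Without the 2 maxilla arrays of mutant set 1 it was 0.73 (adjusted p = 0.0153), distal maxilla gave 0.80 in place of 1.45, and proximal mandible, whose arrays are the same in that fit, had an adjusted p of 0.0385, with 6.66% of all genes called. The second S100b probe set, with a mean of 8.02 against 8.49, gave 0.59 (adjusted p over probe sets 0.0343).

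Between the ends S100b was lower distally by -1.62 ± 0.249 (adjusted p = 4.89e-05, 3.07-fold lower), a call that held in all 14 other settings. The difference was -1.90 ± 0.498 in control maxilla (adjusted p = 0.0259) and -2.37 in mutant mandible (adjusted p = 0.00226, 5.17-fold lower). The first was lost without any 1 control set (adjusted p = 0.088 to 0.206) or without mutant set 3 (0.0503), and the second without mutant set 3 (0.059). In mutant maxilla it was -0.92 (adjusted p = 0.397). Between the jaws S100b did not pass, at 0.23 ± 0.249 (adjusted p = 0.636), with a 95% interval of -0.29 to 0.75.

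S100b moved with cartilage genes. Over the 24 arrays its correlation with the mean of 10 cartilage genes was 0.78, and after removing group means it was 0.92, as a description over arrays that share sets. The control distal mandible array with the lowest S100b, replicate 1 at 6.36, had the lowest cartilage mean of its group, 9.21 against 11.74 and 10.80. The mutant distal maxilla array with the highest S100b was the one whose cartilage mean was 11.43. All 10 cartilage genes were higher in mandible than in maxilla (7.69% of all genes) and all 10 were lower at the distal end (15.4% of all). On average between genotypes 0 of 10 were called, with a median difference of 0.419 against 0.0201 over all genes, and of 0.103 without the maxilla arrays of mutant set 1. In proximal mandible, where the S100b genotype difference was largest, the cartilage mean ran from 10.52 to 11.78 in controls and from 11.77 to 12.20 in mutants. The part of cartilage in the S100b differences was not tested.

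**Figure D5:**
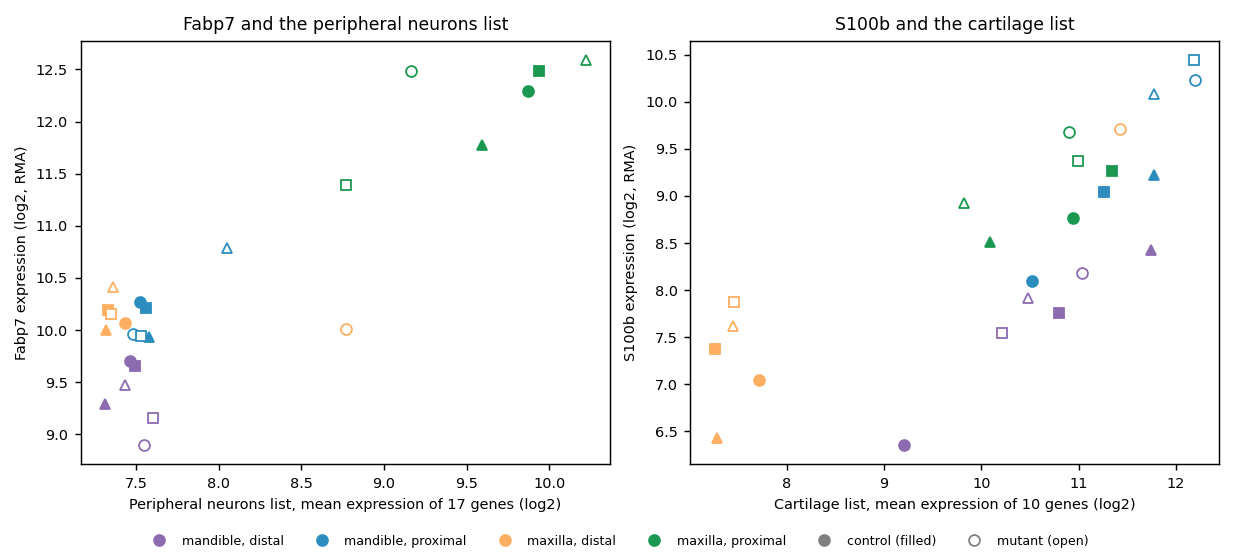
Left, Fabp7 against the mean of 17 genes of peripheral neurons, and right, S100b against the mean of 10 cartilage genes, on the 24 arrays (all log2), coloured by region, with control arrays filled and mutant arrays open and a marker shape for each set. The 6 proximal maxilla arrays hold the highest Fabp7 values, at 11.39 and above, and S100b rises with the cartilage mean, with 1 mutant distal maxilla array at 11.43 far from the other 5 of that region.

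The ligands and partners of these receptors were followed in lists of the same pathways. Counts in this and the following lists stand beside the shares of all genes. Between genotypes 18.3% were called higher and 15.5% lower, and 11.6% with the random block. Between jaws 7.69% were higher and 10.7% lower in mandible, and between ends 15.1% were higher and 15.4% lower distally. In neuregulin and ErbB signalling 8 of 10 genes were tested. Between genotypes 2 were higher and 1 lower, with a median of 0.103. Nrg1, the axonal ligand of ERBB3, was higher in mutants by 0.45 ± 0.072 (SE, adjusted p = 0.000132), and so was Bace1, a protease that cleaves neuregulin, by 0.29 (adjusted p = 2.61e-05), while Adam17, another such protease, was lower by -0.13 (adjusted p = 0.00225). With the set as a random block, which uses the estimated correlation, Nrg1 and Bace1 were called and Adam17 was not (adjusted p = 0.0614 with an estimated correlation). Nrg1 was also lower in mandible (-0.53) and at the distal end (-0.65, adjusted p = 1.11e-06). Egfr went with it, at -0.37 and -0.36, and Bace1 was lower in mandible by -0.13 (adjusted p = 0.029, and 0.0618 without the maxilla arrays of mutant set 1). Erbb2, the partner of ERBB3, was higher at the distal end by 0.13 (adjusted p = 0.0488, and 0.141 without those arrays).

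Of 5 endothelin genes tested, between genotypes Ece1, the enzyme that activates endothelins, was higher by 0.20 (adjusted p = 0.00457) and Ece2, a related enzyme, lower by -0.24 (adjusted p = 0.000742). The Ece1 call was lost with the random block (adjusted p = 0.145 with an estimated correlation). Edn3, the ligand of EDNRB in crest development, was lower in mandible by -0.43 (adjusted p = 0.000464) and at the distal end by -0.38 (adjusted p = 0.000763), the directions in which Ednrb itself was lower. Edn2 was higher at the distal end by 1.24 and Ece1 by 0.37, and Ece2 lower by -0.15. Of 6 neurotrophin genes tested, Ntrk3, the receptor for neurotrophin-3, was higher in mutants by 0.63 (adjusted p = 0.0021; with an estimated correlation the adjusted p was 0.0836) and lower at the distal end by -2.01 (adjusted p = 4.84e-09), where Ntf5, a neurotrophin, was higher by 0.73 and Maged1, a p75 partner, lower by -0.11. No neurotrophin gene was called between the jaws.

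Among 21 other genes of the Schwann cell lineage 4 were higher in mutants, as were 18.3% of all genes, and 0 lower, with a median of 0.061. They were Zeb2 (0.39, adjusted p = 0.00442), a repressor needed for Schwann cell maturation, the adhesion gene Ncam1 (0.17, adjusted p = 0.0114), the phosphatase gene Ptprz1 (0.31, adjusted p = 0.0382) and Sox2 (0.72, adjusted p = 0.0424), which holds Schwann cells immature. With the random block, which called 11.6% of all genes, 1 of the 4, Zeb2, was called (adjusted p = 0.0354 with an estimated correlation), and the others had adjusted p = 0.198 to 0.303. Without the maxilla arrays of mutant set 1, Sox2 was at 0.40 (adjusted p = 0.0849), and 3 genes of the list were called higher, with a median of 0.13. Between the jaws 3 were higher and 5 lower in mandible, led by the chaperone gene Cryab (-1.37) and the POU factor gene Pou3f1 (-1.05) on the lower side and the myelin gene Pmp22 (0.39) on the higher. Of the 3 higher, Zeb2 and Ptprz1 were not called without the maxilla arrays of mutant set 1 (adjusted p = 0.0845 and 0.0572). Between the ends 5 were higher and 6 lower distally, and Dhh, the hedgehog ligand that Schwann cells send to the nerve sheath, was among the lower (-0.64, adjusted p = 8.26e-08), as were Cryab (-1.25) and Mia (-2.66), a gene that cartilage also expresses. Ncam1, among the higher, was not called without the maxilla arrays of mutant set 1 (adjusted p = 0.0916). The list thus moved in both directions by region.

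Of 13 transcription factors of the neural crest 5 were higher in mutants, with a median of 0.259, among them Ets1 (0.26), Snai1 (0.39), Snai2 (0.15) and Tfap2a (0.30). Of all genes 18.3% were called higher, and 11.6% were called with the random block. With the random block 1 of the 5, Snai2, was called (adjusted p = 0.0259 with an estimated correlation), and the others had adjusted p = 0.0648 to 0.342. The mean of the list was 10.90 on the distal and 10.50 on the proximal maxilla array of mutant set 1, against 9.95 to 10.37 on the other mutant maxilla arrays, and without that pair of arrays 5 of 13 were called, with a median of 0.155. In mandible 5 were higher and 1 lower, and at the distal end 8 were higher, such as Tfap2a (1.41) and Pax3 (2.31), and 2 lower. Of 8 melanocyte genes Kit was higher in mutants (0.32, adjusted p = 0.00163; with an estimated correlation the adjusted p was 0.0545). Without the maxilla arrays of mutant set 1 the count was 3. In this list 4 were lower in mandible, namely Kit (-0.60), Pmel (-0.98), Dct (-1.29) and Tyr (-0.74), and none was called between the ends. Edn3, Ednrb and these melanocyte genes thus shared the direction between the jaws.

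The lists of other cell types were as follows between genotypes, where 18.3% of all genes were called higher, 15.5% lower and 11.6% with the random block. Of 16 neuron genes tested and of 12 skeletal muscle genes none was called, with medians of 0.077 and 0.024. Without the maxilla arrays of mutant set 1 these medians were -0.001 and 0.224, and 1 muscle gene was called higher. Of 8 endothelial genes 1 was higher and 4 lower (median -0.144), of 8 epithelial genes 1 was higher (Cdh1, 0.32), and of 2 brain genes tested 1 was higher (Slc1a3, 0.36). With the random block 2 of the 5 endothelial calls were made, and those of the other endothelial genes (adjusted p = 0.0738 to 0.214 with an estimated correlation), Cdh1 (adjusted p = 0.14) and Slc1a3 (adjusted p = 0.137) were lost. Between regions 12 of 16 neuron genes and 12 of 12 muscle genes were lower in mandible, and as many at the distal end. Of all genes 10.7% were lower in mandible and 15.4% at the distal end. At the distal end 5 epithelial genes were higher (15.1% of all genes), and 4 were higher in mandible (7.69% of all). Of the endothelial genes 2 were lower in mandible and 2 at the distal end, and both brain genes were lower in mandible.

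The 10 genes outside the 8 whose profile over the 24 arrays was most like the mean profile of the 8 were Gpr173, Fam171b, Syt4, Pde1c, Afap1, Mfap3l, Cacna2d1, Wsb2, Dzank1 and Sorcs3, with correlations of 0.893 to 0.923. After removing group means these fell to 0.183 to 0.548. The mean profile was taken over centred but unscaled values, so Fabp7 and S100b weigh most in it. Their SDs over the 24 arrays were 1.106 and 1.143, against 0.215 to 0.359 for the others. The 10 genes are thus mainly like Fabp7 and S100b rather than like each of the 8. The 5 genes most like Sox10 alone were Bbc3, Cnp, Sptan1, Cnppd1 and Stx2, with correlations of 0.851 to 0.914, and 0.749 to 0.898 after removing group means. Cnp, a gene of myelin-forming glia, was the second of them. Each of these 5 also correlated with the Gapdh 3' minus 5' difference, at 0.60 to 0.82, as Sox10 did at 0.63. Within the 8, Ednrb followed the mean of the other 7 most closely (0.806 over 24 arrays) and Foxd3 least (0.172), again with unscaled means in which Fabp7 and S100b weigh most.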

How the data were processed

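RNA from 24 jaw samples was purified on RNeasy columns, and 5 µg a sample was labelled, per the labels' protocols. Per the submitters' processing notes the authors used RMA, and the deposited values are log2; the version, the arrays normalized together and any pooling of embryos are not given in the sources here. The number of arrays limits the precision. Of 45101 probe sets, 34958 name 1 gene symbol, 932 several and 9211 none. A gene was tested when its brightest probe set reached above the array's 40th percentile on 3 or more arrays.

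One model over all 24 arrays, with a coefficient for each group and 16 residual degrees of freedom, was fitted in limma 3.58.1 (R 4.3.3). A call is a p under 0.05 after Benjamini-Hochberg adjustment over 13850 genes. All adjusted p-values come from limma. Errors are standard errors unless marked SD. The fit was run on simulated arrays with independent noise and no correlation within sets. That run therefore says nothing on the genotype p-values where arrays of a set deviate together. Averages weight the 4 regions equally. Comparisons were mutant minus control, mandible minus maxilla and distal minus proximal, on average and within strata, and differences of the genotype effect.

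Deviations of same-numbered arrays from their group means correlated at 0.22 to 0.69 in every pair between ends and at 0.108 to 0.70 between jaws, except 0.004 in 1 pair of control proximal arrays. The numbers were therefore taken as pairs, on the basis of these values alone, except in that comparison and in the average jaw difference that contains it. The random block correlation was 0.40 (duplicateCorrelation, statmod 1.5.0).

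The 8 genes and the 12 lists were chosen with earlier results of these data known. Beside the 8 genes, a list is described by its counts, and up to 4 of its members with the smallest p are named. Some markers of cell types, such as Pou4f1, Stmn2 and Isl1, are named apart from that rule. The genes of most similar profile are the 10 nearest the mean profile and the 5 nearest Sox10. Some listed genes are not reported here. Alternatives were a second quantile normalization, the mean of all probe sets, no filter, the set as a block, 1 value per set, each set left out, a Gapdh covariate, mutant set 2 alone, and the arrays of a region alone. Leaving out the maxilla arrays of mutant set 1, and the test of the end difference between jaws, were chosen after seeing the data.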

Additional observations from a re-analysis of the deposited data

Results flagged for a closer look

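Fabp7 is listed because its end difference differed between the jaws: the distal minus proximal difference was larger in maxilla than in mandible, and mandible minus maxilla of it was 1.21 ± 0.273 (SE, limma adjusted p = 0.0109), a comparison added after the values were seen.

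Ngfr is listed because its ends were ordered in opposite ways in different tissue. In mutant mandible every distal array lay above every proximal one (0.39), and in control maxilla every distal array lay below every proximal one (-0.29). That difference between the groups was not tested as a contrast of its own, and neither difference was called.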

How the results depend on the processing

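Counts are of the 8 genes. For the average genotype effect the 4 calls became 1 (S100b) with all probe sets averaged, 0 with the set as a random replicate block, 1 with the Gapdh covariate (Cdh19) and 0 with 1 value per set, and they ran from 0 to 3 when 1 set was left out. Erbb3 reversed to -0.0244 with the Gapdh covariate, and Ednrb to -0.0522 with all probe sets averaged. Within regions, where 0 were called, 1 was called in distal maxilla with the Gapdh covariate and without the 2 maxilla arrays of mutant set 1, and 1 in proximal mandible without those arrays. Leaving out a set gave 0 to 2 in distal mandible and in distal maxilla. The 4 genes lower in mandible became 7 with the random or the fixed replicate block (27.9% and 28.7% of all genes), all but S100b, and 2 to 6 without a set. The 3 genes of the average end difference were called in each setting that left out a set. For single strata the block gave 3 in place of 0 between the ends of control mandible, 3 in place of 1 between the jaws in mutant distal tissue, 3 in place of 2 between the ends of control maxilla, and between the ends of mutant mandible 4 (random) or 3 (fixed) in place of 2; it changed no other call of a paired comparison. The mean of all probe sets left 0 of 1 in control distal tissue between the jaws. Counts with mutant set 2 only, where each mutant group has a single array, are not given. Without the 2 maxilla arrays of mutant set 1 the counts were 2 for the ends of control mandible (15.9%), 4 for mutant distal (7.48%) and 2 for mutant proximal tissue (6.44%) between the jaws, and 2 for the end difference between jaws (8.38%). Leaving out a set gave 0 to 1 for control distal and mutant distal tissue between the jaws, for the ends of control mandible and for the end difference between jaws, and 1 to 2 for the ends of control maxilla and of mutant mandible. In other settings the counts were within 1.5 times those reported. The cause of these changes was not tested; settings that leave out arrays also have fewer samples.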
